A study of Mus musculus with 12 samples.

Results

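The 9 genes described here belong to the phosphoinositide 3-kinase (PI3K) and AKT pathway and its feedback in mouse B lymphoma cells: *Pik3ip1*, *Irs2*, *Insr*, *Pik3ap1*, *Pik3cd*, *Inpp5d*, *Akt1*, *Sgk3* and *Ppp2r5b*. They were found in the deposited table as probe sets with exactly 1 gene symbol, equal to one of these names, and the probe set with the highest mean over the 12 arrays stood for each gene. The choice between probe sets arose for *Insr* alone, which had 2. All 9 lay above the 40th percentile of their array on 12 of 12 arrays, so none entered through 1 group, and they are 9 of 12961 genes tested.

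The cells were primary cultures of B lymphomas from l-MYC;B1-8f mice on a C57BL/6J x BALB/c background, 3 tumours numbered 2567, 2646 and 2676. Every tumour gave 1 array to each of 4 groups. In 3 groups the cells were untreated, and were BCR-positive, BCR-negative or BCR-independent; in the other group BCR-negative cells had been grown with CHIR99021, which inhibits the kinase GSK3. The B cell receptor (BCR) had been removed in all but the first group, by TAT-Cre, a Cre recombinase that enters cells. All cells were sorted from mixed cultures with BCR-positive cells after 4 days. BCR-independent cells were BCR-negative lymphoma cells that had been cultured for long, 1 clone per tumour (clone 8 of tumour 2567, clone 7 of tumour 2646 and clone 1 of tumour 2676). No array of treated BCR-positive cells was analysed here, so the effect of CHIR99021 is described in BCR-negative cells alone. 4 array titles end in a (2) that the labels do not explain: BCR-positive and untreated BCR-negative of tumour 2646, and the same of tumour 2676.

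PI3K is recruited to the membrane when the BCR or its coreceptor is engaged, and makes a lipid, phosphatidylinositol trisphosphate, that brings AKT to the membrane to be phosphorylated. Lipid phosphatases remove that signal, and the protein phosphatases PP2A and PHLPP remove the phosphates from AKT. Active AKT phosphorylates GSK3, which inhibits it, and FOXO transcription factors, which leave the nucleus. When AKT is quiet, FOXO factors raise *Insr* and *Irs2*, a feedback that sensitises cells to upstream input. In B cells, tonic PI3K signalling is known to support survival.

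The labels were checked first. *Ighv1-72*, from which the removed B1-8 heavy chain takes its variable region, read 9.62 ± 0.30 in BCR-positive, 6.44 ± 0.57 in BCR-negative, 5.77 ± 0.73 in treated and 4.04 ± 0.28 in BCR-independent cells (log2 signal, mean ± SD, n = 3 each). Of 7 measured B cell markers 6 lay above the 75th percentile on all 12 arrays, and *Ms4a1* lay below the median on all of them. 4 of 6 T cell, 3 of 5 myeloid, 2 of 5 stromal and 2 of 4 plasma cell markers lay below the median on all 12 arrays. Others lay above it on all 12: *Cd8a* (T cell), *Itgam* (myeloid), *Col1a1* and *Col1a2* (stroma), and *Sdc1* and *Xbp1* (plasma cell). *Xbp1* lay above the 75th percentile on 12 arrays and *Sdc1* on 11. Array medians ranged from 3.32 to 3.44 and 75th percentiles from 5.23 to 5.46. The means of *Pik3ip1*, *Irs2*, *Insr*, *Sgk3* and *Ppp2r5b* over the 12 arrays lay between those marks, where values of this kind of array are compressed. Probe sets differ in their response, so a higher signal of one gene than of another is not read as more RNA.

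*Ppp2r5b* encodes a regulatory subunit of PP2A of the B56 class, which directs the phosphatase to its substrates. It was the member that rose when BCR-negative cells were grown with CHIR99021. Its promoter, from 250 bases before to 50 bases after the annotated start, is shown first because *Ppp2r5b* was the member called; those of *Irs2* and *Pik3ip1* follow as the pair of members that correlated most over the arrays. *Pik3cd*, which also read lower on treated arrays, has 3 annotated windows and is not shown. Each is in lower case, written 5′ to 3′ on the gene's strand, from RefSeq on GRCm38.p6. Capitals mark a match to a searched motif.
Ppp2r5b, chr19:6235791-6236090, minus strand: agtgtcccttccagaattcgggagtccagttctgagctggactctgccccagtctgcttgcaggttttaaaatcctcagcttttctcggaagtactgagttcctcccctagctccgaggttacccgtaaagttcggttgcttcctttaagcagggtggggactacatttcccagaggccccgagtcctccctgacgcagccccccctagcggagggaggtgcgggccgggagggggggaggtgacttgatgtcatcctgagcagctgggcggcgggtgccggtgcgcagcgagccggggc
Irs2, chr8:11008880-11009179, minus strand: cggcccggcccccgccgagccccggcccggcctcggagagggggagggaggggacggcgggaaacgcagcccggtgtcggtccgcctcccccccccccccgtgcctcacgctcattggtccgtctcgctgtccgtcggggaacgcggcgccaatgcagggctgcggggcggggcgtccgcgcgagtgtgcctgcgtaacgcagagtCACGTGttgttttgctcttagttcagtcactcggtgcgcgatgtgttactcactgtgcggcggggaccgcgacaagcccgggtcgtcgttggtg
Pik3ip1, chr11:3330481-3330780, plus strand: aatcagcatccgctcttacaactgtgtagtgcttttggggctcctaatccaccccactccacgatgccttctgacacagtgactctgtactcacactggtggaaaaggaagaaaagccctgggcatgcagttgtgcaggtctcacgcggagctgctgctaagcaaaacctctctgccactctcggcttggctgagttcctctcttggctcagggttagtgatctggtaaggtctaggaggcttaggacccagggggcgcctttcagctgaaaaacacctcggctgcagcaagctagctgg
The table held promoters of 7 members, 10 windows in all; *Insr* and *Sgk3* were not matched. 3 motifs were searched on both strands, none overlapping another: GTAAACA, the core site of FOXO factors, CACGTG, the E-box bound by MYC with MAX, and ATCAAAG, the core site of TCF and LEF factors that act downstream of GSK3 and β-catenin. They occur in 3.65%, 7.15% and 3.73% of the 32851 windows of all genes. Counted by gene, they occur in 4.05%, 8.09% and 4.29% of 27025 genes. Among the 7 members, GTAAACA was found in *Akt1* alone (in 1 of its 2 windows, on the opposite strand, its first base at -161). CACGTG was found in *Irs2* (at -44) and *Pik3ap1* (at -172), and ATCAAAG in 0. The *Ppp2r5b* and *Pik3ip1* windows hold none of the 3. G and C make up 61.7% of the *Ppp2r5b*, 72.0% of the *Irs2* and 54.7% of the *Pik3ip1* window, against a median of 52.7% over all windows.

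The comparison of treated with untreated BCR-negative cells asks what GSK3 inhibition does to transcripts of the pathway in cells without a receptor. In untreated BCR-negative cells of tumours 2567, 2646 and 2676, *Ppp2r5b* read 3.92, 4.39 and 4.06. In treated cells of the same tumours it read 4.96, 5.53 and 5.16. All 3 treated arrays lay above all 3 untreated ones, and the tumours differed little in the size of the step, at 1.04, 1.14 and 1.10. The fitted rise was 1.09 (SE 0.20, 95% interval 0.65 to 1.54, limma adjusted p = 0.0372), or 2.13-fold (1.56 to 2.91). It was the 1 of 9 members called, where 1.06% of all genes were called higher and 1.91% in either direction. In these bulk samples, more or fewer cells of a type and more or less RNA per cell cannot be told apart. Without tumour 2567, 2646 or 2676 the rise was 1.12, 1.07 and 1.09 with adjusted p = 0.115, 0.124 and 0.206, without the tumour as a block adjusted p = 0.216, and with a term for the title mark 1.24 with adjusted p = 0.135, so each of these ended the call. In tumour 2567, where no array carries the mark, the step was 1.04.

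**Figure D1:**
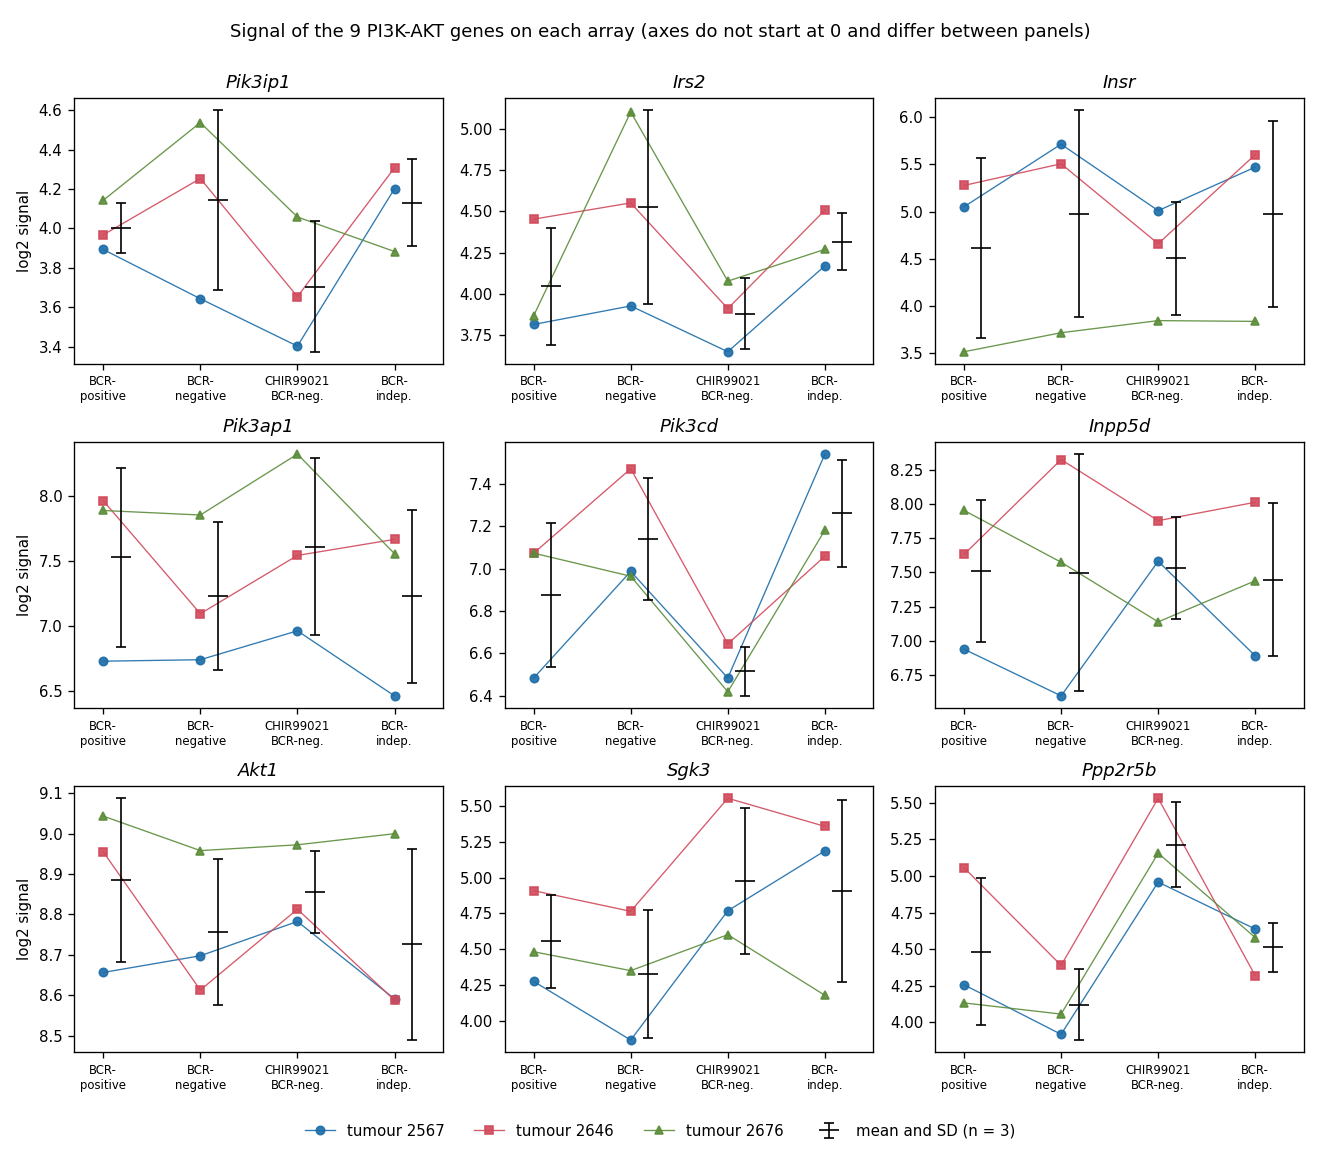
Log2 signal (y axis) of the 9 genes in the 4 groups (x axis), with 1 coloured point per tumour joined by lines, and the mean and SD of 3 arrays in black. *Ppp2r5b* read 4.96 to 5.53 on treated arrays, above its 3.92 to 4.39 on untreated BCR-negative arrays, while *Insr* was set apart by tumour, with 3.51 to 3.84 on the 4 arrays of tumour 2676.

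The means of the other groups lay between those of untreated and treated BCR-negative cells. Single arrays did not all follow: in tumour 2646 the BCR-independent array (4.32) lay below the untreated BCR-negative one (4.39). BCR-positive cells read 4.26, 5.06 and 4.13 for *Ppp2r5b*, and BCR-independent cells 4.64, 4.32 and 4.58. The order of means was treated (5.21 ± 0.29), BCR-independent (4.51 ± 0.17), BCR-positive (4.48 ± 0.50) and untreated BCR-negative (4.12 ± 0.24). Treated cells exceeded BCR-independent cells by 0.70 (SE 0.20, adjusted p = 0.214) and BCR-positive cells by 0.73 (SE 0.20, adjusted p = 0.121), higher in 3 of 3 tumours each time but not called. BCR-independent and BCR-positive cells, neighbours in that order, differed by 0.029 (95% interval -0.42 to 0.48).

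The other B56 genes were not called. *Ppp2r5a*, *Ppp2r5c*, *Ppp2r5d* and *Ppp2r5e*, which encode alternative subunits for the same place in PP2A, differed by -0.13, -0.17, 0.13 and -0.21 between treated and untreated cells. By limma 0 of 4 were called, where 1.91% of all genes were, and 0 had an unadjusted p under 0.05, where 16.6% did. *Ppp2r5a* and *Ppp2r5c* were lower in all 3 tumours, where 15.8% of genes were. The groups of *Ppp2r5c* did not overlap, where those of 10.6% of genes did not. The 95% intervals of the 4 genes reached from -0.50 to 0.40 and all lie below the lower bound of 0.65 for *Ppp2r5b*. The difference between paralogues was not tested itself.

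**Figure D2:**
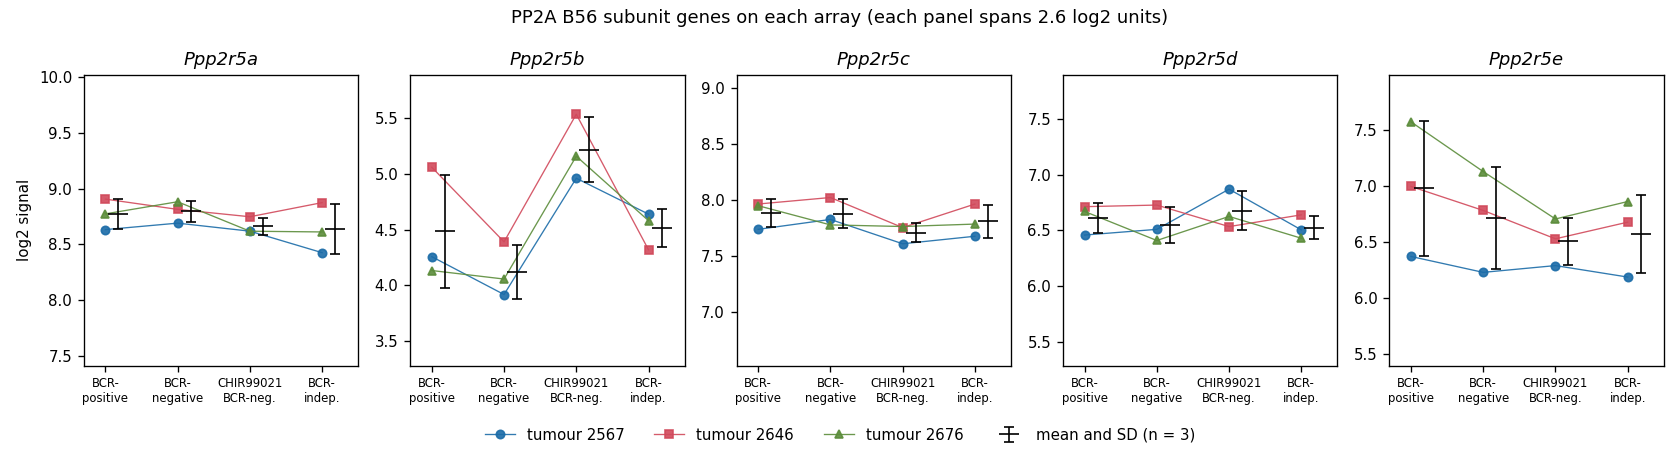
Log2 signal (y axis) of the 5 genes of PP2A B56 subunits in the 4 groups (x axis), with 1 point per tumour and the mean and SD of 3 arrays; every panel spans the same number of log2 units. *Ppp2r5b* stepped up by 1.04 to 1.14 in each tumour on treatment, and the other 4 moved by -0.42 to 0.36.

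Over the 12 arrays, with each tumour's mean taken off, the genes most like *Ppp2r5b* were *Rn4.5s* (r = 0.961), *Sec31a* (r = 0.951) and *Hspb8* (r = 0.932). These are descriptions over 12 arrays that share tumours, with no test. *Rn4.5s*, a small noncoding RNA, differed by 0.65 between treated and untreated cells (adjusted p = 0.122), and *Sec31a*, a coat protein of vesicles that leave the endoplasmic reticulum, rose by 0.42 (adjusted p = 0.0482). *Hspb8*, a small heat shock protein, had group means of at most 3.19, below the array medians, and differed by 0.19 (adjusted p = 0.319).

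*Pik3cd* encodes p110δ, the catalytic PI3K subunit typical of leukocytes. It read 6.99, 7.47 and 6.96 in untreated BCR-negative cells of tumours 2567, 2646 and 2676, and 6.48, 6.64 and 6.42 in treated cells. The treated arrays lay below all untreated BCR-negative arrays. The difference of -0.63 (SE 0.19, 95% interval -1.06 to -0.19, adjusted p = 0.14) had the same sign in 3 of 3 tumours and did not pass. With a term for the title mark it shrank to -0.23 (SE 0.21, limma adjusted p = 0.697). With array weights it was -0.61 (limma adjusted p = 0.0295). Groups failed to overlap for 2 of 9 members, *Ppp2r5b* and *Pik3cd*, against 10.6% of all genes. BCR-positive cells read 6.48, 7.07 and 7.07 for *Pik3cd*, and BCR-independent cells 7.54, 7.06 and 7.18. The order of means was BCR-independent (7.26 ± 0.25), BCR-negative (7.14 ± 0.29), BCR-positive (6.88 ± 0.34) and treated (6.52 ± 0.12). Treated and BCR-independent cells, the ends of that order, differed by -0.75 (SE 0.19, adjusted p = 0.184) without overlap, and no neighbouring pair of groups differed by an adjusted p under 0.05.

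*Irs2* and *Insr* carry the insulin signal to PI3K, *Insr* as the receptor and *Irs2* as its docking protein. *Irs2* read 3.93, 4.55 and 5.10 in untreated BCR-negative cells of the 3 tumours and 3.65, 3.91 and 4.08 in treated cells. The treated array was the lower in each tumour (-0.28, -0.64 and -1.03), yet the groups overlapped. The fitted difference was -0.65 (SE 0.21, 95% interval -1.12 to -0.18, adjusted p = 0.153). BCR-positive cells read 3.81, 4.45 and 3.87, and BCR-independent cells 4.17, 4.51 and 4.27. Treated cells lay below BCR-independent cells without overlap (-0.44, SE 0.21, adjusted p = 0.443). The order of means was BCR-negative (4.53 ± 0.59), BCR-independent (4.32 ± 0.17), BCR-positive (4.04 ± 0.35) and treated (3.88 ± 0.22), and no pair was called.

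*Insr* differed more between tumours than between groups. On the 4 arrays of tumour 2676 it read between 3.51 and 3.84, and on the 8 arrays of the other tumours between 4.66 and 5.71. Treated minus untreated BCR-negative cells gave -0.70 in tumour 2567, -0.85 in tumour 2646 and 0.13 in tumour 2676. The fitted difference was -0.47 (SE 0.19, adjusted p = 0.238). Its second, dimmer probe set gave -0.69, -0.53 and -0.12 in tumours 2567, 2646 and 2676, which turns the sign in tumour 2676. Group means were 4.61 ± 0.96 in BCR-positive, 4.98 ± 1.10 in BCR-negative, 4.50 ± 0.60 in treated and 4.97 ± 0.98 in BCR-independent cells.

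*Pik3ip1* encodes a membrane protein that binds the PI3K catalytic subunit and restrains it. It read 3.64, 4.25 and 4.54 in untreated BCR-negative cells and 3.40, 3.65 and 4.06 in treated cells of tumours 2567, 2646 and 2676. The treated array was lower in 3 of 3 tumours, but the groups overlapped, and the difference of -0.44 (SE 0.20, 95% interval -0.88 to 0.0010, adjusted p = 0.303) was not called. BCR-positive cells read 3.89, 3.97 and 4.14 and BCR-independent cells 4.20, 4.31 and 3.88. The BCR-independent arrays were higher than the treated ones in tumours 2567 and 2646 and lower in tumour 2676. With tumour means taken off, *Pik3ip1* and *Irs2* correlated at r = 0.748 over the 12 arrays, the highest among all pairs of members; the arrays share tumours, and this is a description.

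*Sgk3* encodes a kinase related to AKT that binds phosphoinositides on endosomes. It read 3.87, 4.76 and 4.35 in untreated BCR-negative cells and 4.77, 5.55 and 4.60 in treated cells of tumours 2567, 2646 and 2676. The treated array was the higher in every tumour, by 0.90, 0.79 and 0.25, and the groups overlapped. The difference was 0.65 (SE 0.23, 95% interval 0.13 to 1.16, adjusted p = 0.19). BCR-independent cells read 5.19, 5.36 and 4.18, higher than BCR-negative cells in tumours 2567 and 2646 and lower in tumour 2676 (0.58, SE 0.23, adjusted p = 0.814). BCR-positive cells read 4.28, 4.91 and 4.48. A further probe set that the annotation gives to *Sgk3* together with *Mrps36* was not used.

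*Pik3ap1* (BCAP) is a B cell adaptor that couples the BCR to PI3K. It differed by 0.38 between treated and untreated BCR-negative cells (SE 0.19, adjusted p = 0.37), at 0.22, 0.45 and 0.47 in the 3 tumours. Its means were 7.53 ± 0.69 in BCR-positive, 7.23 ± 0.57 in BCR-negative, 7.61 ± 0.68 in treated and 7.23 ± 0.67 in BCR-independent cells, with an SD over tumours larger than any step between groups. *Inpp5d* (SHIP1), a phosphatase of the PI3K lipid in blood cells, went opposite ways by tumour: treated minus untreated was 0.99 in tumour 2567, -0.45 in tumour 2646 and -0.44 in tumour 2676. The fitted 0.034 therefore has a wide 95% interval of -0.61 to 0.68 (adjusted p = 0.975). *Akt1*, the central kinase, stayed within a narrow band, from 8.59 to 9.04 over all 12 arrays. Its difference on treatment was 0.10 with a 95% interval of -0.11 to 0.31 (adjusted p = 0.695), and its group means lay between 8.73 and 8.88.

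Counted together on treatment, 5 members were higher and 4 lower, with a median difference of 0.034, beside 0.026 over all genes. 4 were higher in all 3 tumours (*Ppp2r5b*, *Sgk3*, *Pik3ap1* and *Akt1*), where 25.7% of all genes were, and 3 lower in all 3 (*Irs2*, *Pik3cd* and *Pik3ip1*), where 15.8% were. 5 of 9 had an unadjusted p under 0.05 (*Ppp2r5b* and *Sgk3* higher, *Irs2*, *Pik3cd* and *Insr* lower), against 16.6% of all genes. The members were chosen with earlier results of these data known, so these counts describe them and test nothing.

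**Figure D3:**
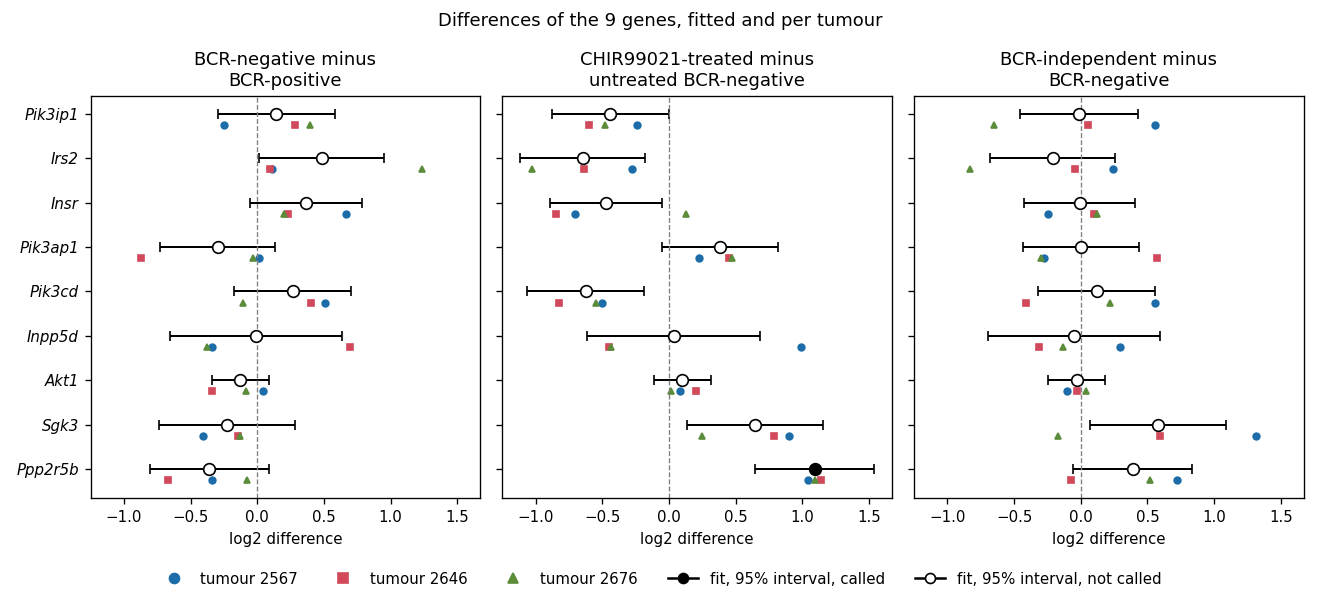
Log2 difference (x axis) of each gene (y axis) in 3 comparisons, with the fitted value and its 95% interval as a circle and bar, filled where called, and the value of each tumour as a coloured point below. *Ppp2r5b* under CHIR99021 (1.09, interval 0.65 to 1.54) is the filled circle, and its 3 tumours fall within 0.10 of each other.

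Loss of the BCR alone was read by comparing BCR-negative with BCR-positive cells. 0 of 9 members were called by limma, where 0.00772% of genes were, and *Irs2* alone had an unadjusted p under 0.05, where 3.19% of genes did. *Irs2* was higher by 0.48 (SE 0.21, 95% interval 0.013 to 0.95, adjusted p = 0.999), at 0.11, 0.098 and 1.24 in tumours 2567, 2646 and 2676, so most of it came from tumour 2676. *Insr* was higher in 3 of 3 tumours (0.66, 0.23 and 0.20). *Sgk3* (-0.41, -0.14 and -0.13) and *Ppp2r5b* (-0.34, -0.67 and -0.076) were lower in 3 of 3. *Pik3ap1* differed by -0.87 in tumour 2646 and by 0.011 and -0.035 in tumours 2567 and 2676. Of *Pik3cd* (0.26), *Pik3ip1* (0.14), *Akt1* (-0.13) and *Inpp5d* (-0.0091), none had the same sign in all tumours, and every fitted interval but that of *Irs2* spanned 0. 4 members thus had 1 sign in all 3 tumours, beside 24.4% of all genes, and 0 had groups that did not overlap, beside 4.51%.

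A further comparison set the BCR-independent clones against the BCR-negative cells of their tumour, and asks whether the pathway differs in clones that persist without the receptor. 0 of 9 members were called (0.00772% of genes), and *Sgk3* alone had an unadjusted p under 0.05 (5.99% of genes). *Ppp2r5b* differed by 0.39 (SE 0.20, 95% interval -0.058 to 0.84, adjusted p = 0.821), at 0.72, -0.071 and 0.52 in the 3 tumours. No member had the same sign in all 3 tumours, where 26.2% of genes did. *Akt1* differed by -0.030 with an interval of -0.24 to 0.18, *Insr* by -0.0083, *Pik3ap1* by -0.0012 and *Pik3ip1* by -0.014. The 95% intervals of *Insr*, *Pik3ap1* and *Pik3ip1* reached from -0.46 to 0.43 with 3 tumours. These bounds are not a limit for a call, since *Sgk3* differed by 0.58 and was not called (limma adjusted p = 0.814). How large a step must be for a call in this comparison was not tested, since simulated steps were placed in treated arrays only.

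The comparisons above share arrays, and their values are given side by side without a measure of likeness between them. Against BCR-positive cells, treated cells had 0 members called (0.802% of genes) and 1 at an unadjusted p under 0.05, *Ppp2r5b* (15.6% of genes). BCR-independent cells against BCR-positive cells had 0 called (0.0849% of genes) and 0 at that level (9.61% of genes). In that comparison 4 of 9 members had 1 sign in all 3 tumours, where 26.1% of genes did. *Insr* (0.42, 0.33 and 0.32) and *Irs2* (0.36, 0.055 and 0.40) were the higher ones, and *Pik3ap1* (-0.27, -0.30 and -0.33) and *Akt1* (-0.066, -0.37 and -0.044) the lower ones. Treated cells against BCR-independent cells had 0 called (0.162% of genes) and 3 at an unadjusted p under 0.05, *Ppp2r5b*, *Pik3cd* and *Insr* (12.3% of genes). For *Ppp2r5b*, *Irs2* and *Pik3cd* these 2 groups did not overlap, 3 of 9 members, where 8.19% of genes did not.

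The wider pathway was read from a list of 81 genes that holds the 9 members and 72 others, of which 60 were tested. On treatment 27 of the 60 were higher and 33 lower, with a median of -0.021 beside 0.026 over all genes. 0 rose and 5 fell: *Pik3ca*, *Inpp5k*, *Inppl1*, *Mtor* and *Foxo3*, where 0.849% of all genes fell and 1.06% rose. At an unadjusted p under 0.05, 5 were higher and 12 lower, beside 10.4% and 6.2% of all genes. 23 of 60 were lower in all 3 tumours, where 15.8% of genes were, and 8 higher, where 25.7% were. The list too was chosen with earlier results of these data known, so its counts are a description and not a test.

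By role, the PI3K subunits held 1 gene that fell among 12 others tested. *Pik3ca*, the widely expressed catalytic subunit p110α, read 7.75, 8.28 and 8.08 in untreated and 7.00, 7.43 and 7.52 in treated BCR-negative cells. The groups did not overlap, and the fall was 0.72 on the log2 scale (difference -0.72, SE 0.11, adjusted p = 0.0268). Among 6 other lipid phosphatases 2 fell, both of the class that removes the same phosphate as SHIP1. *Inpp5k* read 6.24, 7.58 and 6.69 before and 5.39, 6.27 and 5.72 after treatment (-1.04, SE 0.16, adjusted p = 0.0268). *Inppl1* (SHIP2) differed by -0.70 (SE 0.15, adjusted p = 0.0499), lower in 3 of 3 tumours. With the mean of its probe sets that value was -0.46 (adjusted p = 0.168), so its probe sets disagree.

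Among 8 other genes of the AKT and SGK kinases and their activators *Mtor* fell. This kinase acts on AKT as part of mTORC2 and drives growth as part of mTORC1. It read 7.64, 9.28 and 9.45 in untreated and 6.67, 8.45 and 9.08 in treated cells, so tumour 2567 was low throughout and the step had 1 sign in all 3 (-0.72, SE 0.13, adjusted p = 0.0372). *Mtor* was also lower in treated than in BCR-positive cells (-0.86, SE 0.13, adjusted p = 0.035), the 1 call among these 60 genes in the other 5 comparisons. That call ended without tumour 2567, 2646 or 2676 (adjusted p = 0.144, 0.332 and 0.055), without the tumour block (0.946), with the mark (0.108) and with only the 2 groups fitted (0.194). The 11 other AKT phosphatase genes tested and the 11 genes of the mTORC1 branch held 0 genes called by limma on treatment, where 1.91% of all genes were called. They held 2 and 3 genes at an unadjusted p under 0.05, where 16.6% of all genes were.

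Among the 9 AKT substrates and inhibitors tested *Foxo3* fell. It read 5.75, 6.03 and 5.90 in untreated and 5.27, 5.44 and 5.48 in treated BCR-negative cells, without overlap (-0.50, SE 0.087, adjusted p = 0.0338). *Foxo1* differed by -0.69 with a larger error (SE 0.33, adjusted p = 0.343), at -0.48, -1.08 and -0.51 in the 3 tumours. Leaving out any of the 3 tumours, dropping the tumour block or adding the title mark ended the call of each of the 5 genes, with differences that kept their sign. A fit of only the 2 groups also ended those of *Inppl1*, *Mtor* and *Foxo3* (adjusted p = 0.0637, 0.0692 and 0.0637), trend and robust moderation that of *Foxo3* (0.0569), and no filter that of *Inppl1* (0.0597). On treated arrays the mean of the B cell markers read 7.49 to 7.96, beside 7.84 to 8.34 on untreated BCR-negative arrays. The markers did not move alike: *Ebf1* differed by -1.21, *Pax5*, *Cd79b* and *Cd22* by -0.46, -0.42 and -0.37, and *Cd79a* and *Ms4a1* by 0.041 and 0.063, with *Blnk* at 8.04 in both groups. The part of these differences in the results was not tested. At BCR loss and in BCR-independent against BCR-negative cells 0 of the 60 were called by limma, where 0.00772% of all genes were each time. At an unadjusted p under 0.05 there were 0 and 4 of the 60, where 3.19% and 5.99% of all genes were.

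**Figure D4:**
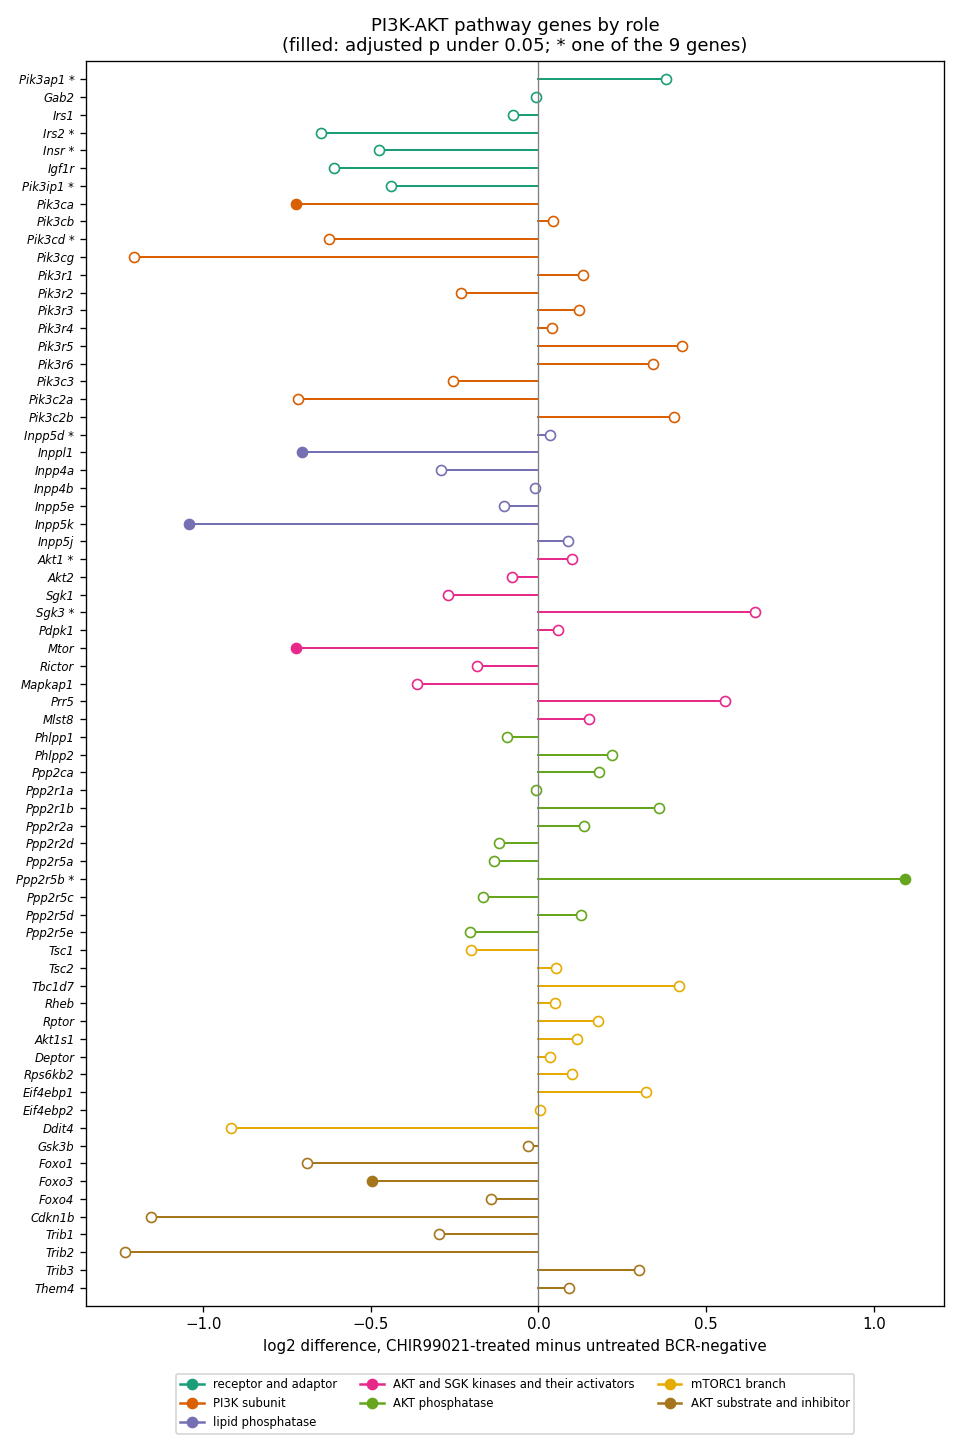
Log2 difference between CHIR99021-treated and untreated BCR-negative cells (x axis) of the 69 tested genes of the list (y axis), coloured by role and filled where the adjusted p was under 0.05; a star marks the 9 members. *Ppp2r5b* is the filled point to the right at 1.09, and the 5 filled points to the left lie between -1.04 and -0.50.

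**Figure D5:**
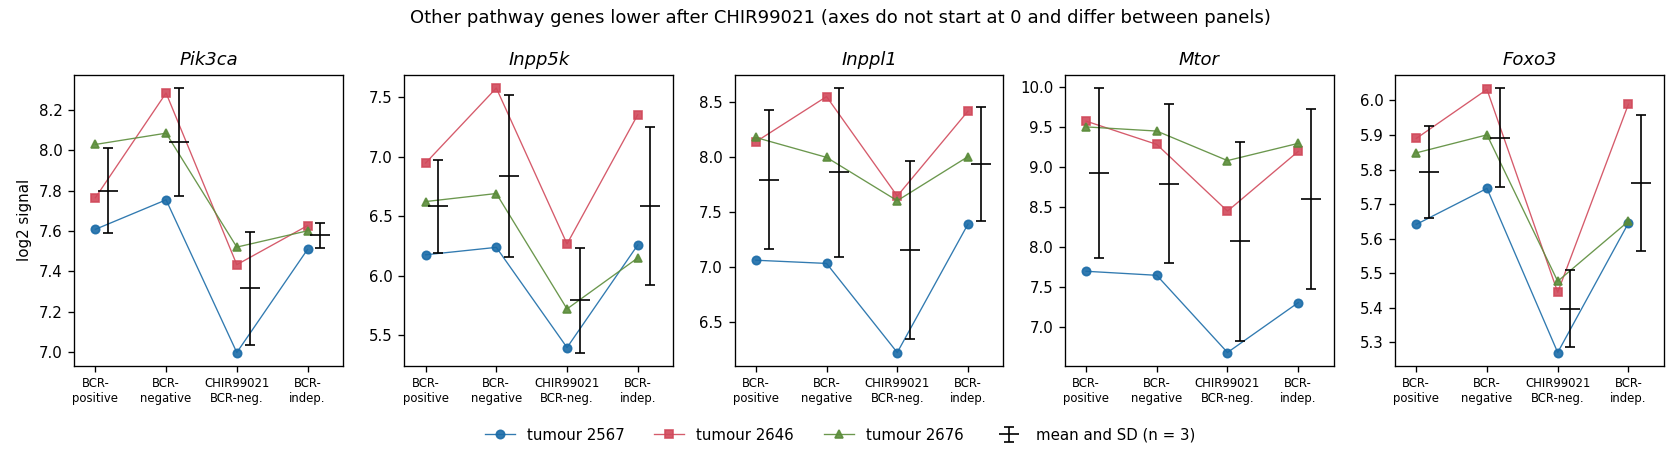
Log2 signal (y axis) of *Pik3ca*, *Inpp5k*, *Inppl1*, *Mtor* and *Foxo3* in the 4 groups (x axis), with 1 point per tumour and the mean and SD of 3 arrays. In each of the 3 tumours the treated array is below the untreated BCR-negative one, with differences from -0.37 (*Mtor* in tumour 2676) to -1.31 (*Inpp5k* in tumour 2646).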

How the data were processed

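Log2 expression signals of 35556 probe sets were deposited by the authors, from Affymetrix Mouse Gene 1.1 ST arrays, 1 array per sample. The submitters' processing notes name RMA, with Affymetrix Power Tools; their versions were not given in the sources used here. RMA compresses differences between dim probe sets. The values were used as deposited, and their precision is limited by how many arrays there are. 21218 probe sets had 1 gene symbol, and the others were left out of tests. Symbols were updated by matching gene IDs to a GRCm38.p6 RefSeq table. Probe sets above the 40th percentile of their array on at least 3 arrays were kept, the brightest per gene (12961 genes).

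limma 3.58.1 in R 4.3.3 fitted group and tumour over 12 arrays (6 residual degrees of freedom), tested on simulated data. Genes with p under 0.05 after Benjamini-Hochberg adjustment over all genes are named called, and "rose" and "fell" are used of such genes only. The tumour number in the titles pairs the arrays: deviations from group means correlated at 0.284 to 0.792 within and -0.716 to 0.165 between tumours. Taking off a group mean pulls correlations between arrays of that group to negative values, so the range between tumours is in part fixed beforehand. Nothing says that cultures were repeated, so p-values measure the spread between these arrays. Members, lists, motifs and alternatives were chosen with earlier results of these data known. Named were all members, list genes called in the first 3 comparisons, B56 paralogues of the called member, the 3 genes most like it (predicted genes passed over), and *Foxo1*, *Foxo3*, *Ighv1-72* and the cell type markers as checks. Each value was recomputed with array weights, without the tumour block, with no filter or one at the 60th percentile, with trend and robust eBayes, after quantile or cyclic loess normalization, from a mean over probe sets, from only the 2 groups, with a term for the title mark, and with each tumour left out.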

Additional observations from a re-analysis of the deposited data

How the results depend on the processing

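The count of members called on treatment (1) was 0 without the tumour block (no replicate block), 0 with the title mark, 4 with array weights (*Ppp2r5b*, *Irs2*, *Pik3cd* and *Pik3ip1*) and 0 to 0 without each tumour. The 5 other list genes called became 0 without the block, 13 with array weights, 2 with only the 2 groups, 1 with the mark (*Pik3r5*) and 0 to 0 without each tumour. Against BCR-positive cells the 1 called (*Mtor*) became 0 without the block, 2 with array weights, 3 with cyclic loess and 3 with quantile normalization. It was 0 from only the 2 groups and 0 to 0 without each tumour. All genes called in that comparison numbered 104, and 7 without the block, 168 with array weights and 183 with cyclic loess. They numbered 151 with quantile normalization, 0 with only the 2 groups, and 19, 4 and 15 without tumours 2567, 2646 and 2676. BCR-independent against BCR-positive cells went from 0 to 1 with the mark, where all genes called went from 11 to 12. All genes called on treatment numbered 248, 12 without the block, 109 with only the 2 groups, 32 with the mark, 1635 with array weights, and 17, 1 and 10 without tumours 2567, 2646 and 2676. Leaving out a tumour leaves fewer arrays, and the cause of the other shifts was not tested.

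Of 702 values of single members under an alternative, 43 changed sign, all of differences that were not called, and *Ppp2r5b* on treatment kept its direction in all 13. *Inpp5d* changed sign at BCR loss with array weights (0.063), cyclic loess (0.00077) and quantile normalization (0.0071), on treatment with array weights (-0.16) and cyclic loess (-0.016), between treated and BCR-positive cells with the same 2 (-0.096 and -0.015), between treated and BCR-independent cells with array weights (-0.033), and with the mark in BCR-independent against BCR-negative (0.43) and BCR-positive (0.42) cells. Between BCR-independent and BCR-negative cells the mark turned *Pik3ip1* (0.18), *Irs2* (0.016) and *Akt1* (0.0092), and array weights *Insr* (0.12) and *Pik3ap1* (0.060). Between treated and BCR-positive cells the mark turned *Irs2* (0.062), *Pik3cd* (0.037) and *Akt1* (0.010). *Ppp2r5b* between BCR-independent and BCR-positive cells turned with array weights (-0.013), cyclic loess (-0.0086) and quantile normalization (-0.016).

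Without each tumour, values ran as follows. *Inpp5d* ran from -0.36 to 0.18 at BCR loss, -0.44 to 0.27 on treatment, -0.22 to 0.079 and -0.28 to 0.17 in BCR-independent against BCR-negative and BCR-positive cells, -0.28 to 0.45 in treated against BCR-positive and -0.22 to 0.28 against BCR-independent cells. In BCR-independent against BCR-negative cells *Pik3ip1* ran from -0.30 to 0.31, *Irs2* from -0.44 to 0.0999, *Insr* from -0.073 to 0.11, *Pik3ap1* from -0.29 to 0.15, *Pik3cd* from -0.098 to 0.39 and *Akt1* from -0.066 to 0.0085. In treated against BCR-positive cells *Irs2* ran from -0.35 to 0.022, *Insr* from -0.33 to 0.14, *Pik3ap1* from -0.094 to 0.33 and *Akt1* from -0.11 to 0.028. *Ppp2r5b* in BCR-independent against BCR-positive cells ran from -0.18 to 0.41, and *Sgk3* in treated against BCR-independent cells from -0.11 to 0.31.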

Other observations

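Some genes of the pathway list that were not called on treatment are given here by value. They were chosen after their values were seen, and all of them but *Prr5* were lower on treatment. Of the 60 tested list genes other than the members, 27 were higher, 5 of them at an unadjusted p under 0.05 (limma). *Prr5*, a higher one, differed by 0.56 (adjusted p = 0.129). *Trib2*, a pseudokinase of the Tribbles family, differed by -1.23 between treated and untreated BCR-negative cells (SE 0.59, limma adjusted p = 0.343), at -1.91, -1.01 and -0.78 in tumours 2567, 2646 and 2676. *Pik3cg*, the PI3K catalytic subunit coupled to G proteins, differed by -1.21 (SE 0.36, adjusted p = 0.127), at -0.65, -1.57 and -1.40. *Cdkn1b*, the cell cycle inhibitor p27 and an AKT substrate, differed by -1.15 (SE 0.25, adjusted p = 0.0531), at -0.53, -1.49 and -1.45. *Ddit4*, an inhibitor of mTORC1 induced by stress, differed by -0.92 (SE 0.29, adjusted p = 0.141), at -0.15, -0.91 and -1.69. *Igf1r*, the receptor most like *Insr*, differed by -0.61 (SE 0.17, adjusted p = 0.11), at -0.73, -0.92 and -0.18, and like *Insr* its step was smallest in tumour 2676. The treated and untreated groups did not overlap for *Trib2*, *Cdkn1b* and *Igf1r*, where 10.6% of all genes did not. For *Pik3cg* and *Ddit4* they overlapped.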
